A study of Mus musculus with 3 samples.

Results

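The neuregulins Nrg1 to Nrg4 and the ErbB receptors Egfr, Erbb2, Erbb3 and Erbb4 are 8 genes, taken here by name from a list of sites where the zinc finger transcription factor Sp9 was recovered on chromatin of the newborn mouse olfactory bulb. A peak belongs to a gene when the authors' list gives that gene as its name, and such a peak is called linked below. Of 19979 peaks in the list, 11 were linked to these genes, and 7 of the 8 genes had at least 1. Nrg4 had no listed peak. The question of the study was what Sp8 and Sp9 do while interneurons of the bulb develop. Bulbs of CD1 mice at postnatal days 0 to 2 were crosslinked (1% formaldehyde, 10 min) and their chromatin sheared to 200 to 1000 bp. The samples were 2 Sp9 immunoprecipitation libraries made with a homemade antibody and 1 input library without antibody, with no genetic change or drug named in the labels. The values come from the peaks shared by the immunoprecipitations, with 1 authors' score per peak, so no peak has a replicate error and no test between samples was possible.

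Neuregulins are ligands with an EGF-like domain, made mostly as membrane proteins and released or trimmed by proteases. They bind Erbb3 and Erbb4, and the bound receptor pairs with another member of the family. Erbb2 has no known ligand of its own and acts as a partner. Erbb3 has a weak kinase and signals through its partners, and Egfr answers to Egf and its relatives rather than to neuregulins. In the olfactory system, Erbb4 is known from neuroblasts of the rostral migratory stream and from bulb interneurons, Nrg1 to Nrg3 as its ligands there, and Erbb3 from the glia that wrap olfactory axons. Whole bulbs mix these cell types, and a high score could come from many cells with Sp9 at a site or from more Sp9 per cell; these cannot be told apart. The peak list holds no expression values, so the cell types in the tissue were not checked against markers.

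Promoter sequences show what DNA of the kind bound by Sp factors lies at the starts of these genes. The GC box GGGCGG and the CACCC box CCACCC, classical target letters of Sp and Klf zinc finger proteins, were searched on both strands of the 250 bases before the start site in RefSeq's promoter table (GRCm38.p6), which matched 5 of the 8 genes. The peaks are placed on the older build mm9 and were not converted, so these windows and the peaks were not laid on each other. The windows below belong to the 2 genes with a match (Egfr and Erbb2), the receptor with the most linked peaks (Erbb4) and the neuregulin without a listed peak (Nrg4). They read 5′ to 3′ on the strand of the gene, and capitals mark matches on either strand.
Egfr, chr11:16751953-16752202, plus strand: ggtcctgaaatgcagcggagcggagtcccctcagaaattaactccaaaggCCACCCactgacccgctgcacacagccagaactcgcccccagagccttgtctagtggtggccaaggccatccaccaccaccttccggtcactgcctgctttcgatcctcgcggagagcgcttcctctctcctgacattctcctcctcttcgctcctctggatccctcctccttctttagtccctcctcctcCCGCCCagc
Erbb2, chr11:98412234-98412483, plus strand: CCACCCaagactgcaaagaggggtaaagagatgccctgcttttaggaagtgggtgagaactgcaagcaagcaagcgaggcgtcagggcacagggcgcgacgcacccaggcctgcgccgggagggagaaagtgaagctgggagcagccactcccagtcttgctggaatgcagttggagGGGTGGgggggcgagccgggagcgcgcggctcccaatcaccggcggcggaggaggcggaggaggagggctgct
Erbb4, chr1:69108060-69108309, minus strand: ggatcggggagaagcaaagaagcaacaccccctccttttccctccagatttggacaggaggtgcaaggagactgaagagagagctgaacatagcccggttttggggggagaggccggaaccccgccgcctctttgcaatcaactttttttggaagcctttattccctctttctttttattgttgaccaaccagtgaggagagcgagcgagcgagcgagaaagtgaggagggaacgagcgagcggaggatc
Nrg4, chr9:55283626-55283875, minus strand: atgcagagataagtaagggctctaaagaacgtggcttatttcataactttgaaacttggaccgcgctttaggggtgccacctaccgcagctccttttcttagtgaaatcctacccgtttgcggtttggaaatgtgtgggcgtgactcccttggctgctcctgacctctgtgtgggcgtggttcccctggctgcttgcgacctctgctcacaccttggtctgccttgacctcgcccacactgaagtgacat

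In the Egfr window, CCACCC began 200 bases before the start and GGGCGG lay on the opposite strand, read as CCGCCC, with its first base 9 bases before the start. Erbb2 held CCACCC at 2 places, 250 bases before the start and, on the opposite strand, 73 bases before it. No match to either motif, in these letters and this window, was found for Erbb4, Nrg3 or Nrg4. No 2 of these matches overlapped. Over all 32851 windows of the table, 32.7% held GGGCGG, 28.1% held CCACCC and 48.8% held at least 1 of the 2 motifs. The GC content of the windows was 72.4% for Nrg3, 66% for Erbb2, 60.8% for Egfr, 54% for Erbb4 and 53.2% for Nrg4, against a median of 52.4% over all windows. Nrg4 and Erbb4 were close to that median, and Nrg3 had a higher GC content than 93.6% of them. A match describes letters and does not show where Sp9 sat.

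Both arms of the pathway, ligands and receptors, were linked to Sp9 peaks. At least 1 linked peak was found for 3 of the 4 neuregulins and for 4 of the 4 receptors, together 7 of 8 genes, where 55.4% of all 21900 protein-coding genes had one. Without numbered gene models and olfactory and vomeronasal receptors, 62.3% of coding genes had one. Peaks at or above the list's median score of 210.06, called above-median, were linked to 6 of the 8 genes, against 35.4% of all coding genes. The 6 genes also each had a peak at or above the upper quartile of 353.56, which 19.2% of coding genes had. With 2 or more linked peaks there were 3 members, Nrg2, Nrg3 and Erbb4, where 15.5% of coding genes had as many. Only Erbb4 had 3, a number that 5.62% of coding genes reached or passed. Nrg2 counts here through a peak of score 88 that lay 73 bp from its other peak. Close peaks were not joined in these shares, and gene length was not taken into account. The highest scores of the 7 linked members had a median of 553.44, and those of all linked coding genes a median of 273.25. These are counts over 8 genes chosen by name, given without a test.

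**Figure D1:**
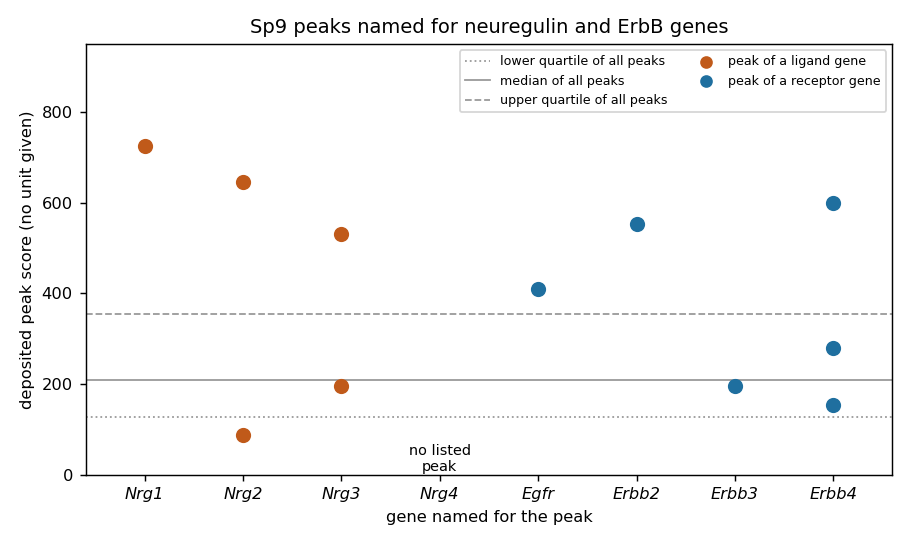
Deposited score (vertical axis, no unit given) of each of the 11 peaks, by the gene named for it; orange points are ligand genes, blue points receptor genes, and the horizontal lines are the quartiles of all 19979 peaks. Nrg1 has the highest point at 724, Nrg2 the lowest at 88, Nrg4 has none, and Erbb3 is the linked member whose highest point lies under the median line.

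Among the ligands, Nrg1 had the highest score of the whole group. Nrg1, whose product is the best known neuregulin of neuronal migration and myelination, had 1 peak, with a score of 724, at chr8:33118838-33120382 (mm9, as for all peak positions here). It ranked 799 in the list and scored above 96.0% of all peaks. The peak was also among the most isolated: the nearest other peak, named Gm3985, was 704 kb away, and 99.8% of placed peaks had a nearer neighbour. On the other side the next peak, named Mak16, was 839 kb away. Of the coding genes directly beside Nrg1 in gene order, Gm3985 had 3 peaks and Fut10 none. The list does not say whether this peak lies in an intron, at a promoter or outside the gene.

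Nrg2, a neuregulin made mainly in the nervous system, had a strong and a weak peak side by side. The strong one scored 645.98, above 94.2% of all peaks, and lay at chr18:36356085-36357216. The weak one, at chr18:36355449-36356012, scored 88, above only 5.03% of all peaks, and was the lowest and narrowest of the 11 with 563 bp. The gap between them was 73 bp. Of 5730 pairs of successive peaks linked to the same coding gene, 144 were as close as this or closer, and the median gap was 22.7 kb. Counted with gaps of up to 1 kb joined, the pair is 1 region and the group has 10 regions in place of 11. The wider surroundings were busy, with 39 other peaks within 1000 kb of the strong one, where the median peak of the list had 19. Within 100 kb there were 3 others, the weak peak among them, against a median of 2. The neighbouring genes Psd2 and Pura had 6 and 2 peaks, with highest scores of 682.67 and 554.57. The next peak before the pair, 127 kb away, was named 4930471G03Rik and scored 324.91. The next after the pair, named Pura, was 82.7 kb away.

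Nrg3, a neuregulin that binds Erbb4 and is largely confined to neural tissue, also had 2 peaks. The higher, at chr14:40285103-40287483, scored 531.90 and was the widest of the group with 2380 bp, wider than 98.4% of all peaks. The lower, at chr14:40366100-40367103, scored 195.55, just under the median of the list. After it, at 36.7 kb, lay a peak named 1700109I08Rik with a score of 164.52. The Nrg3 peaks were 78.6 kb apart, and the 82 kb they spanned exceeded the span of 80.1% of the 2146 coding genes with 2 peaks. Peaks named Nrg3os, a non-coding RNA gene named as the opposite strand of Nrg3, were listed separately. They scored 595.47 (chr14:39355288-39356626) and 98.73 (chr14:39139182-39140082). The nearer of them was 928 kb from the higher Nrg3 peak, with no other listed peak between them. If counted to Nrg3, they would give that gene 4 peaks, and the highest would then be the one named Nrg3os. Egfros, the corresponding name at Egfr, had no listed peak. The coding genes beside Nrg3 in gene order were Ghitm, with 2 peaks and a highest score of 225.88, and Gm31606, with none.

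Nrg4, a small neuregulin best known as a factor secreted by fat tissue, was the member without a listed peak. Its neighbours in gene order were Fbxo22, with 1 peak of score 196.85, and Tmem266, with none. Because the depth of the libraries is unknown, this says only that no shared peak carries the name.

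Among the receptors, Erbb4 had the most peaks. Erbb4, the neuregulin receptor of migrating neuroblasts and many GABAergic interneurons, had 3 peaks on chromosome 1 over 271 kb. The middle one, at chr1:69277929-69279280, scored highest with 598.33, above 92.6% of all peaks. Before it lay a peak of score 278.71 (chr1:69153079-69154737) and after it a peak of score 154.76 (chr1:69423360-69424552), at gaps of 123 and 144 kb. Only the last was under the list's median. The span exceeded that of 84.4% of the 687 coding genes with 3 linked peaks, whose median was 58.6 kb. No other listed peak lay between them, and none lay within 1563 kb before the first, where the next peak was named Cps1. After the last, the next was named Ikzf2, 309 kb away. The neighbouring genes had low peaks, 87.13 for Cps1 and 125.86 for Ikzf2.

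Erbb2, the partner receptor without a ligand, had 1 peak at chr11:98273424-98274682 with a score of 553.44, above 90.9% of all peaks. Other peaks lay close to it. Within 100 kb of its centre there were 10 others, where the median peak of the list had 2, and among them 1 of the Neurod2 peaks on the side of Pgap3 scored higher with 642.81. The directly adjoining peaks scored 96.68 (Pgap3, 11.5 kb before) and 105.16 (Mien1, 25.1 kb after). The gene after Mien1, Grb7, which encodes an adaptor that binds the activated Erbb2 protein, had a peak of score 216.57.

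Egfr, the receptor of Egf and known from neural progenitors, had 1 peak at chr11:16651949-16653386 with a score of 410.37, above 81.0% of all peaks. Its nearest neighbour was 208 kb away, farther than for 93.4% of placed peaks, and was named Fbxo48 with a score of 85.43. On the other side Sec61g had a peak of score 191.44, at 365 kb.

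Erbb3, the receptor with the weak kinase, was the lowest of the 7 linked members. Its peak, at chr10:128026212-128027744, scored 195.72, above 46.8% of all peaks, and 33.0% of linked coding genes had a lower highest score. The peak before it, 22.4 kb away, was linked to Pa2g4, which encodes a protein known for binding Erbb3, and scored 258.93. The peak after it was named Ikzf4 and scored 93.70. The coding gene Rps26, next to Erbb3 in gene order, had no linked peak. By highest score the order was therefore Nrg1, Nrg2, Erbb4, Erbb2, Nrg3, Egfr, Erbb3. Without a spread for any score, it is not known which neighbours in this order differ.

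**Figure D2:**
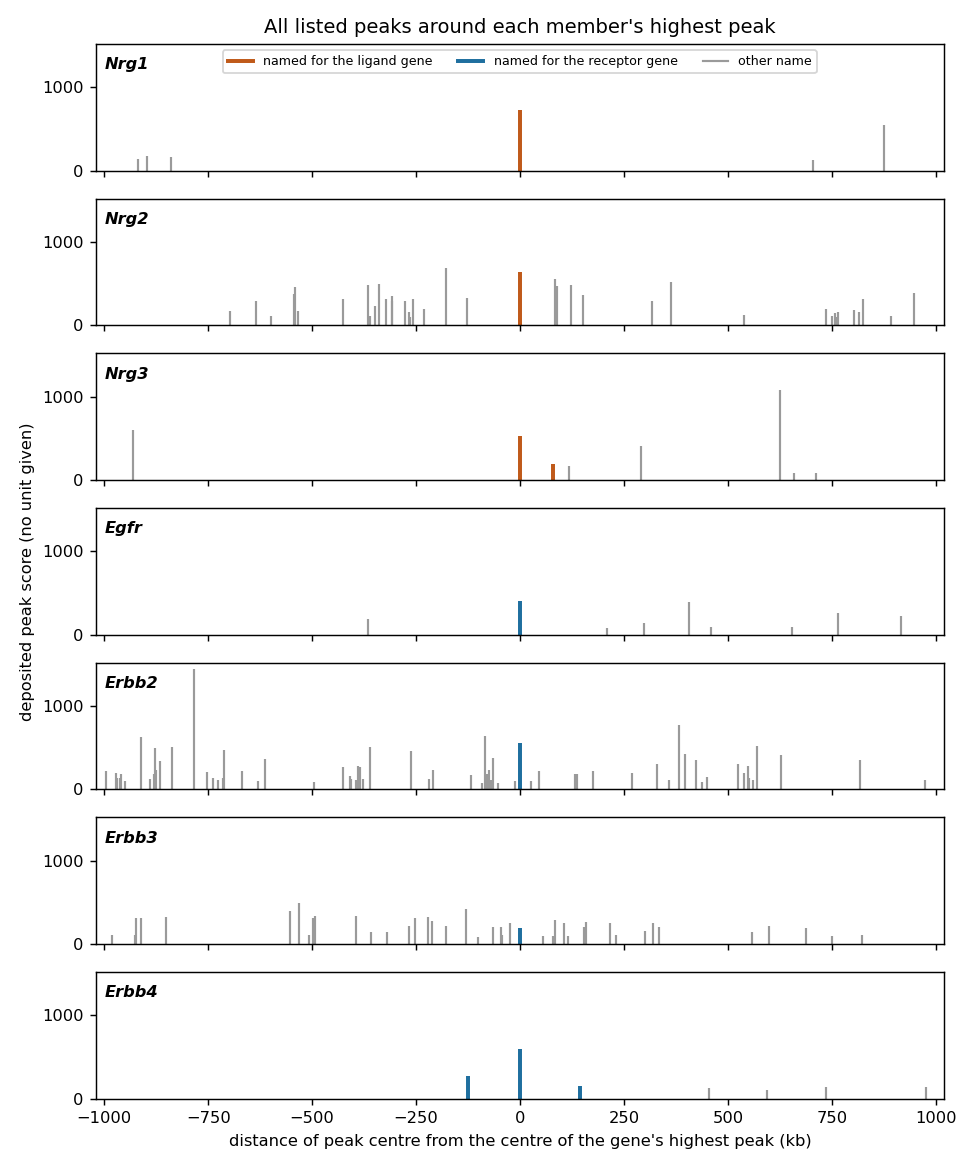
All listed peaks within 1000 kb of the centre of each member's highest peak; the horizontal axis is the distance between peak centres in kb, each line is 1 peak with its deposited score as height, and coloured lines carry the member's name. Nrg1, Nrg3, Egfr and Erbb4 stand in sparse surroundings with 5 to 8 other peaks, whereas Nrg2, Erbb2 and Erbb3 have 39 to 65; the weak Nrg2 peak lies so close to the strong one that the lines merge.

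The members fell in very different surroundings. Within 1000 kb of the highest peak there were 5 other peaks for Nrg1, 6 for Erbb4, 7 for Nrg3 and 8 for Egfr, fewer than for the median peak of the list, which had 19. Around Nrg2 there were 39, around Erbb3 41 and around Erbb2 65. High scores occurred in both kinds of surroundings, Nrg1 and Erbb4 in the sparse and Nrg2 and Erbb2 in the dense. The gap to the nearest other peak had a median of 78.6 kb over the 11 peaks and of 29.5 kb over all placed peaks. Of the 11 peaks, 7 were farther from a neighbour than that overall median, and the exceptions were both Nrg2 peaks, Erbb2 and Erbb3. The Nrg2 peaks were exceptions only through each other: the nearest peak of another name was 82.7 kb from the strong one. The number of genes in these windows was not counted, and its part in the peak numbers was not tested.

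**Figure D3:**
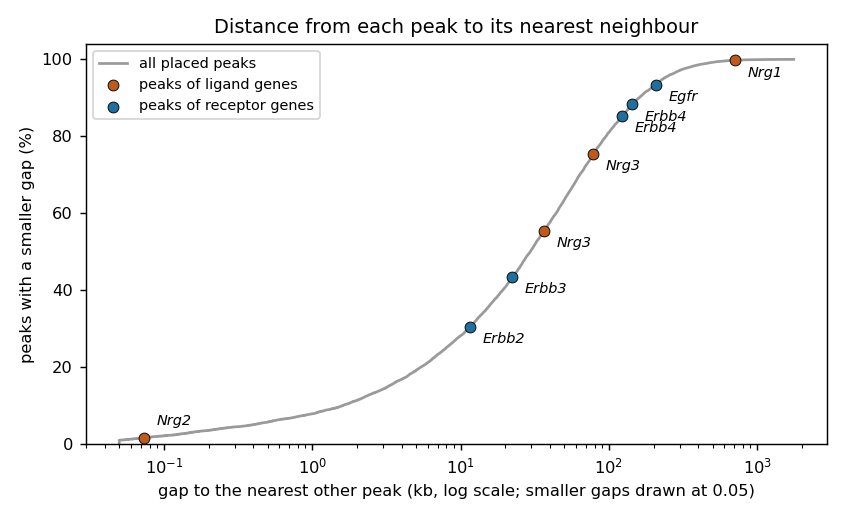
Gap from each peak to the nearest other listed peak (kb, log scale) against the percentage of placed peaks with a smaller gap; the grey line is the whole list and coloured points are the members' peaks. Nrg1 sits near the far end at 704 kb and the Nrg2 pair at the near end, with Egfr and Erbb4 in the upper part of the curve.

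Most of the members' peaks were wider than the median peak of the list, but not all were wide for their score. Of the 11, 10 were wider than the list's median of 986 bp, and their own median was 1351 bp. Peaks with a score within 10% of 88 had a median width of 714 bp, and those within 10% of 724 had 1683 bp, so width was also read among peaks of like score, within 10% of each member's. On that reading 4 of the 11 peaks were wider than over 90% of their peers. Erbb3, at 1532 bp, was wider than 97.8% of 1880 peaks of like score. The lesser peaks of Erbb4, at 1658 and 1192 bp, were wider than 96.6% and 93.4% of peaks of like score, and the higher Nrg3 peak than 97.9%. Egfr was wider than 70.3% of its peers, the lower Nrg3 peak than 57.8% and the weak Nrg2 peak than 12.5%. The peaks with the highest scores were not wide for their score: Nrg1 was wider than 34.1%, the highest Erbb4 peak than 32.3%, Erbb2 than 30.0% and the strong Nrg2 peak than 7.73%. The latter adjoins the weak Nrg2 peak, and whether the 2 calls divide 1 region was not tested.

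**Figure D4:**
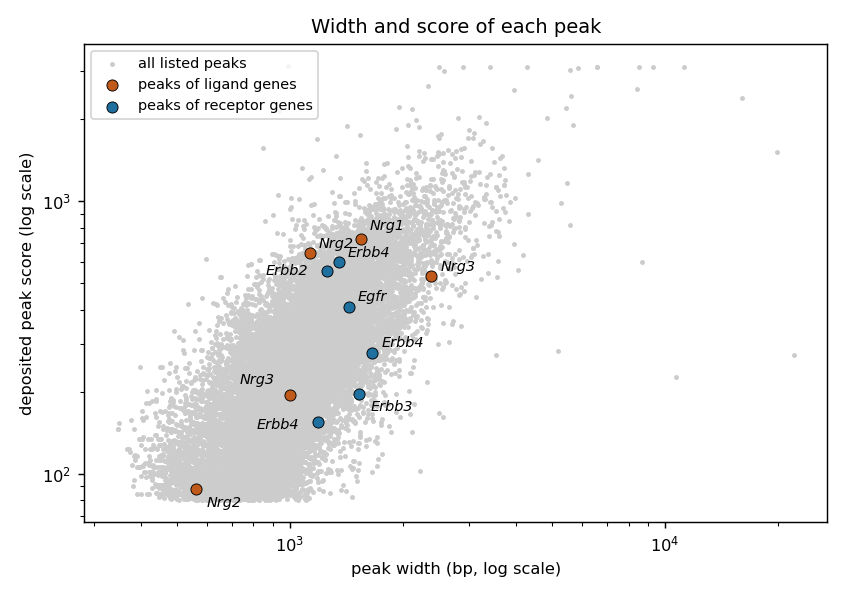
Width in bp (horizontal) and deposited score (vertical) of every listed peak, both on log scales; grey points are all 19979 peaks, orange points peaks of ligand genes and blue points peaks of receptor genes. Nrg1, the strong Nrg2 peak, Erbb2 and the highest Erbb4 peak lie on the narrow side for their score, and Erbb3 and the higher Nrg3 peak on the wide side.

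Most other genes of the pathway were linked too. Of 71 further genes in 6 lists, 63 (88.7%) had a linked peak and 51 (71.8%) an above-median peak, where 55.4% and 35.4% of coding genes did. Among the other ligands of ErbB receptors, 5 of 7 were linked and 3 of 7 had an above-median peak. Betacellulin (Btc) scored 373.44, Tgfa 368.09, Hbegf 293.22 and amphiregulin (Areg) 177.49, while Egf and Ereg had no listed peak. The highest of these lay below the lowest of the highest scores of Nrg1, Nrg2 and Nrg3, which was 531.90. The EGF-like membrane proteins Tmeff1 (847.59), Cspg5 (499.64) and Tmeff2 (304.80) were all linked.

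Proteases that release or cut neuregulins and Erbb4 had 10 of 11 linked and 7 of 11 above the median. Adam10 led with 894.36. The presenilin gene Psen2, a subunit gene of gamma-secretase, had 371.01, Adam17, a sheddase of neuregulins and Erbb4, 253.88, and Bace2 250.82. Bace1, the protease that cuts Nrg1 for myelination, had 237.44, and Psenen had no listed peak. Adaptors and scaffolds had 13 of 14 linked and 11 of 14 above the median, led by Erbin, an Erbb2-binding scaffold (866.99), the docking gene Gab1 (540.61), the Ras exchange factor Sos1 (539.16) and Nck1 (497.05). Shc1 had no listed peak, and Dlg4, the postsynaptic scaffold that binds Erbb4, had the low score of 80.73.

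The kinase cascade below the receptors had 17 of 21 linked and 13 of 21 above the median. The PI3 kinase subunit gene Pik3r1 scored 672.04 and the MAP kinase kinase gene Map2k2 518.16, and Araf, Mapk3, Pik3ca and Gsk3b had no listed peak. Negative regulators were linked throughout, 15 of 15, and 14 of the 15 had an above-median peak. Rasa1 (934.65), Spred1 (728.30), Spred2 (636.50) and Lrig1 (625.83), which promotes the breakdown of ErbB receptors, led this list, and Errfi1, a direct inhibitor of the ErbB kinases, scored 508.20. The exception was Nf1 with 153.70. Over named coding genes alone, without numbered gene models and without olfactory and vomeronasal receptors, the share with a linked peak was 62.3%.

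**Figure D5:**
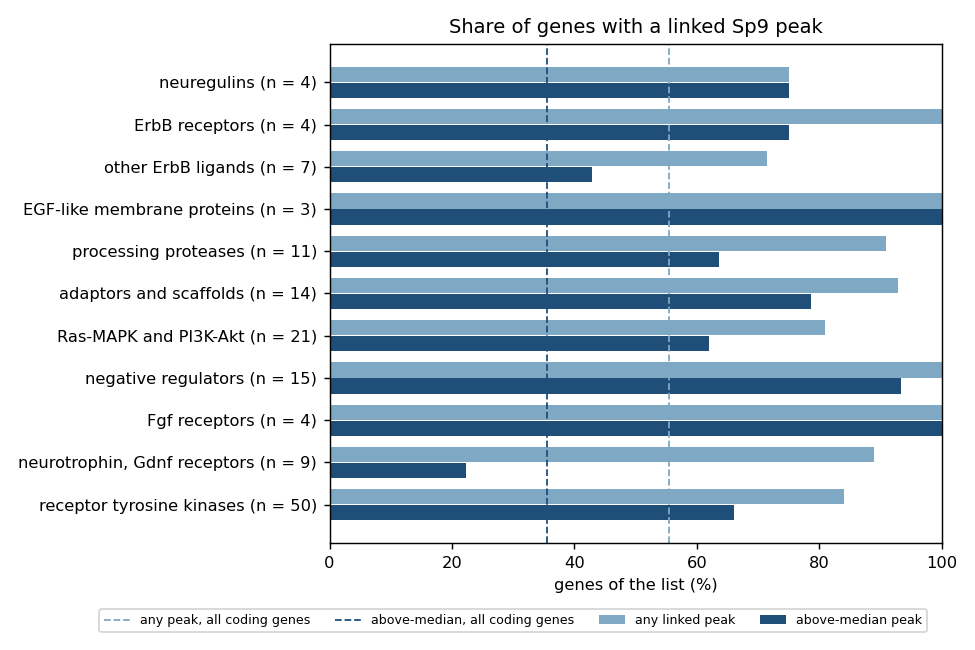
Share of the genes of each list (horizontal axis, in percent) with any linked peak (light bars) and with an above-median peak (dark bars); dashed lines are the shares of all coding genes, 55.4% and 35.4%, and n is the number of genes. The neuregulins and the ErbB receptors lie to the right of both lines, as do most lists; the neurotrophin and Gdnf receptors are left of the line for above-median peaks.

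The ErbB receptors were set beside other receptor tyrosine kinases and beside neurotrophin and Gdnf family receptors. Of 50 other receptor tyrosine kinases, 42 (84%) were linked and 33 (66%) had an above-median peak, against 4 and 3 of the 4 ErbB receptors. The 4 Fgf receptors were all linked and all above the median, with a median highest score of 541.19, where the 4 ErbB receptors had 481.91. Neurotrophin and Gdnf family receptors had 8 of 9 linked but only 2 of 9 above the median, with a median highest score of 178.75. That list also holds receptors that are not tyrosine kinases. The 2 above the median, Ret (657.10) and Ntrk3 (398.24), are kinases. Peaks per gene were 1.5 for the ErbB receptors, 1.25 for the neuregulins, 2.25 for the Fgf receptors, 2 for the neurotrophin and Gdnf receptors and 1.94 for the other receptor tyrosine kinases, against 0.819 over all coding genes. Lists of 4 to 9 genes give coarse shares, and no difference between them was tested.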

How the data were processed

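Chromatin of neonatal CD1 olfactory bulbs gave 2 Sp9 immunoprecipitation libraries and 1 input library, read as paired ends of 150 bases, per the labels' protocols. The data analysed are 1 list of shared peaks deposited by the authors, with a position, a peak score and a gene name per peak. The submitters' processing notes name Bowtie2 2.2.4, MACS 1.4.2 and mm9. Their roles, the formula of the score, the rule for sharing, the naming of genes and whether starts count from 0 or 1 are not stated there. The authors' score ranks and filters peaks of this list only. The deposited start and end positions, which are other values than counts, are given unchanged. Depth is unknown, so no interval for a peak can be given.

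Members were found by exact gene name. For the background, names were matched to RefSeq (GRCm38.p6) by symbol (12806 of 13383), then by a synonym of 1 gene (527); 50 names, with 89 peaks, did not match. Only names, classes and order of genes were taken from that table. Nrdc was sought under its older symbol Nrd1. Shares are over 21900 coding genes. Name matching and motif search were tested on simulated data. The members and lists were chosen with earlier results of these data known. Named are all members, the coding genes and peaks directly beside them, up to 4 genes of each list with the highest scores, and genes without a peak where at most 5. Bace1, Dlg4, Errfi1, Nf1, Grb7, Neurod2, Nrg3os and Egfros, and the promoters printed, were picked after their values were seen. Some list genes that this rule covers are left out of the text. Python 3.11.15, pandas 2.3.3 and numpy 2.4.6 were used.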

Additional observations from a re-analysis of the deposited data

How the results depend on the processing

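Alternatives were run for 5 counts: members with a linked peak, their peaks, members with an above-median peak, pathway genes and receptor tyrosine kinases with a linked peak. One setting, named coding genes as the background, could change only the share beside the 63 pathway genes and not their count. With 8 members, a count of 7 or 6 could not rise by 1.5 times. The same holds for 63 of 71 pathway genes and 42 of 50 receptor tyrosine kinases. For these counts only a fall could pass the limit. Of the 17 alternative values, 15 were within 1.5 times the count as deposited. The exceptions were the peaks of the members, 11 as deposited, of which 7 scored at or above the median and 6 at or above the upper quartile; these settings were chosen after seeing the data, and fewer peaks enter by construction. Members with a linked peak were 7 as deposited and 7 with scores of at least 100, against 55.4% and 52.0% of coding genes. There were 6 with scores at or above the median or the upper quartile, against 35.4% and 19.2% of coding genes. There were 8 when peaks of directly neighbouring coding genes also counted, which 82.8% of coding genes then had. Without unplaced peaks, ribosomal RNA names and runs of 5 or more peaks within 100 kb, 5 members kept a peak (Erbb2 and Erbb3 lost theirs), against 41.6% of coding genes. The group held 10 peaks with gaps of up to 1 or 10 kb joined, and 13 with the antisense names counted, a setting chosen after seeing the data. Leaving out a library and other overlaps were not run, because the list holds no value per library. No paired analysis was possible because the list holds no value per library and the input has 1 library. With depth unknown, a gene without a listed peak may still hold one that was not detectable.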
